A study of Mus musculus with 24 samples.

Results

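The genes described here encode receptors for the inhibitory transmitters GABA and glycine, together with the scaffold proteins, chloride cotransporters, GABA transporters and chloride channels that act with them. They were taken by name from a fixed list, which was chosen with earlier results of these data known. Of the 32310 entries of an expression table, 27 carried one of these names, and all 27 names were found. The table describes projection neurons sorted by FACS (fluorescence-activated cell sorting) from CD1 mouse cortex, CD1 being an outbred strain, with no mutation or treatment named in the labels. Callosal projection neurons join the hemispheres through the corpus callosum, the subcerebral type projects to the brainstem and spinal cord, and the corticothalamic type projects to the thalamus. Each subtype was collected at embryonic days 15, 16 and 18 (E15, E16, E18) and at postnatal day 1 (P1), with 2 libraries per stage and subtype and 24 in all. The table holds 1 pooled value for each of the 12 combinations and no value per library, so a value has no SD of its own. How the cells were marked for sorting, and whether the 2 libraries came from separate animals, is not given in the sources used here.

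GABA-A receptors are pentamers of subunits, usually of alpha, beta and a further type, that form a channel for chloride. Receptors with a gamma subunit mostly gather at synapses, whereas those with a delta subunit respond to low GABA outside them, and the alpha subunit sets much of the kinetics and pharmacology. Glycine receptors are related channels, and GABA-B receptors are dimers that signal through G proteins. The effect of an open channel depends on chloride in the cell: the importer NKCC1 (Slc12a2) raises it and the exporter KCC2 (Slc12a5) lowers it, and in the developing cortex the exporter is known to become abundant late, so that early GABA responses can depolarize.

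Levels are given in FPKM, a count of RNA fragments corrected for transcript length and for the number of fragments mapped. The 12 columns summed to between 355965 and 473871 FPKM, and the sequencing depth behind them is unknown. The sums of marker lists followed the labels of the sort, though not every single marker did. A list of 7 callosal markers, Cux2 and Lhx2 among them, summed to 430.002 to 859.8 FPKM in callosal neurons, against 129.9 to 178 FPKM in subcerebral and 133 to 166 FPKM in corticothalamic neurons. In the fit described below, callosal neurons had 6 of the 7 higher and 1 lower than subcerebral neurons. Against corticothalamic neurons they also had 6 higher and 1 lower. A list of 5 subcerebral markers summed to 718 to 789 FPKM in subcerebral neurons, against 113 to 245 FPKM in callosal and 187 to 297 FPKM in corticothalamic neurons. Subcerebral neurons had all 5 higher than callosal neurons and 4 higher than corticothalamic neurons. Callosal neurons had 3 of the 5 lower and 1 higher than corticothalamic neurons. A list of 6 corticothalamic markers summed to 579 to 696 FPKM in corticothalamic neurons, against 51.8 to 90.9 FPKM in callosal and 39.3 to 359.6 FPKM in subcerebral neurons. Several columns stood apart in markers of other cells. The E15 subcerebral column held the 359.6 FPKM of corticothalamic markers, where the other subcerebral columns had 39.3 to 100.3 FPKM. The E15 callosal column had 20.0 FPKM of the interneuron gene Dlx1 and 16.3 FPKM of Lhx6, whose highest values elsewhere were 6.32 and 3.91 FPKM. There 10 of 15 interneuron markers reached 1 FPKM, and 1 to 8 in the other columns. The sum of this list follows Npy and was 87.5 to 399 FPKM in callosal, 11.7 to 422 FPKM in subcerebral and 90.9 to 719 FPKM in corticothalamic columns. A list of 11 microglial markers summed to 5.99, 48.7, 24.8 and 24.8 FPKM at E15, E16, E18 and P1 in callosal neurons, against 4.33 to 7.53 FPKM in subcerebral and 5.98 to 9.23 FPKM in corticothalamic columns. From E16 on, 10 or 11 of them reached 1 FPKM in callosal columns, and 1 did in each other column. Of the 10 tested, callosal neurons had 9 higher than subcerebral neurons and 9 higher and 1 lower than corticothalamic neurons, so these markers move with every callosal comparison below. Alternatives left out the E15 callosal, the E16 callosal or the E15 subcerebral column, and beyond that the part of these cells in the results was not tested. In sorted bulk RNA, fewer cells of a type and less RNA per cell cannot be told apart.

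**Figure D1:**
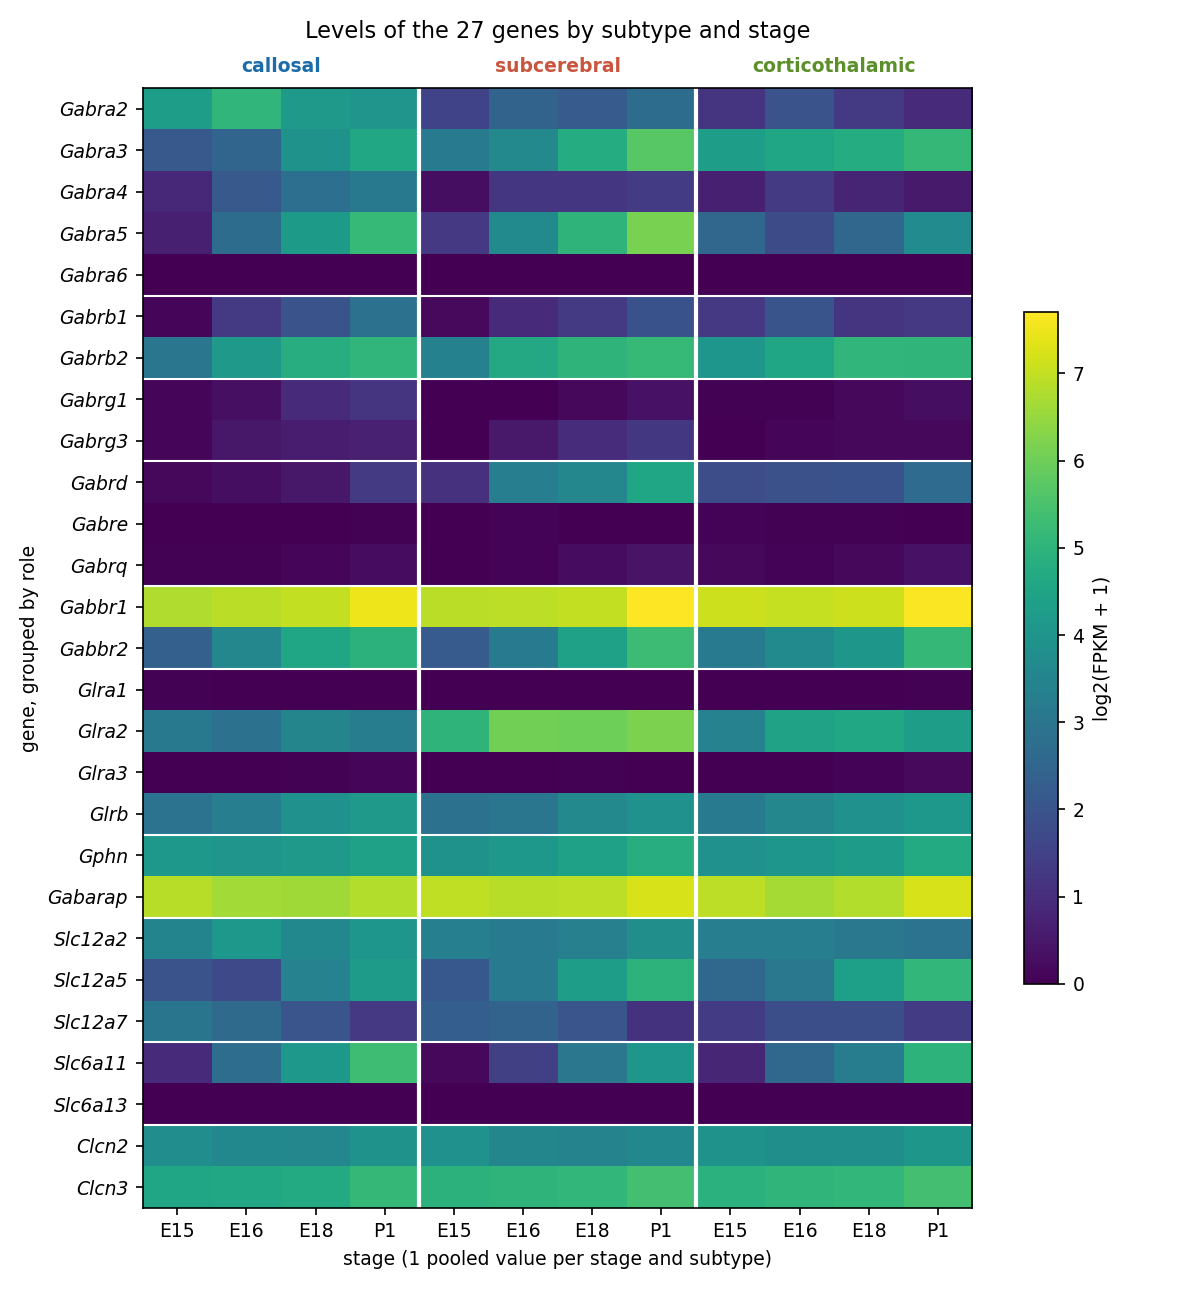
Level of each of the 27 genes as log2(FPKM + 1), with genes in rows grouped by role and the 12 stage and subtype values in columns, callosal at the left, then subcerebral, then corticothalamic. Gabbr1 and Gabarap are bright throughout (at least 95.6 FPKM), 6 genes stay dark in every column (Gabra6, Gabre, Gabrq, Glra1, Glra3 and Slc6a13, at most 0.332 FPKM), and Gabra2 is brightest in the callosal columns while Glra2 is brightest in the subcerebral ones.

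Of the 27 genes, 19 reached 1 FPKM in at least 2 columns and were tested, with limma across all 13946 genes that met this filter. The other 8 were too low. A subtype difference is averaged over the 4 stages and a stage difference over the 3 subtypes. Differences are in log2(FPKM + 1) and carry the SE (standard error) of the fit. With 1 value per combination this error is the unevenness of a difference across stages or subtypes and says nothing of the spread between libraries. Callosal neurons had 3 genes higher than subcerebral neurons (Gabra2, Gabra4 and Slc6a11) and 6 lower (Gabra3, Gabrd, Glra2, Gabarap, Slc12a5 and Clcn3) at an adjusted p below 0.05, where 29.3% of all tested genes passed in either direction. Against corticothalamic neurons, callosal neurons had 3 genes higher (Gabra2, Gabra4 and Slc12a2) and 5 lower (Gabra3, Gabrd, Glra2, Slc12a5 and Clcn3), with 31.3% of all genes passing. Subcerebral neurons differed from corticothalamic neurons in 5 genes, of which Gabra2 and Glra2 were higher and Glrb, Slc6a11 and Clcn2 lower, with 27.5% of all genes passing. The 3 comparisons share columns in pairs. The median size of the difference was 0.38, 0.42 and 0.30 log2 units among the 19 genes, in the order given, against 0.19, 0.18 and 0.19 over all tested genes. Between stages, P1 was higher than E15 for 14 of the 19 genes and lower for 1, Slc12a7, where 33.8% of all genes were higher and 33.6% lower, 67.4% in all. The median P1 minus E15 difference was 1.04 log2 units for the 19 genes and 0.00 for all genes. Because the list was chosen with earlier results of these data known, these counts and medians describe it and are no independent evidence. A difference between stages cannot be told apart from one in collection or library preparation that the columns of a stage share.

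**Figure D2:**
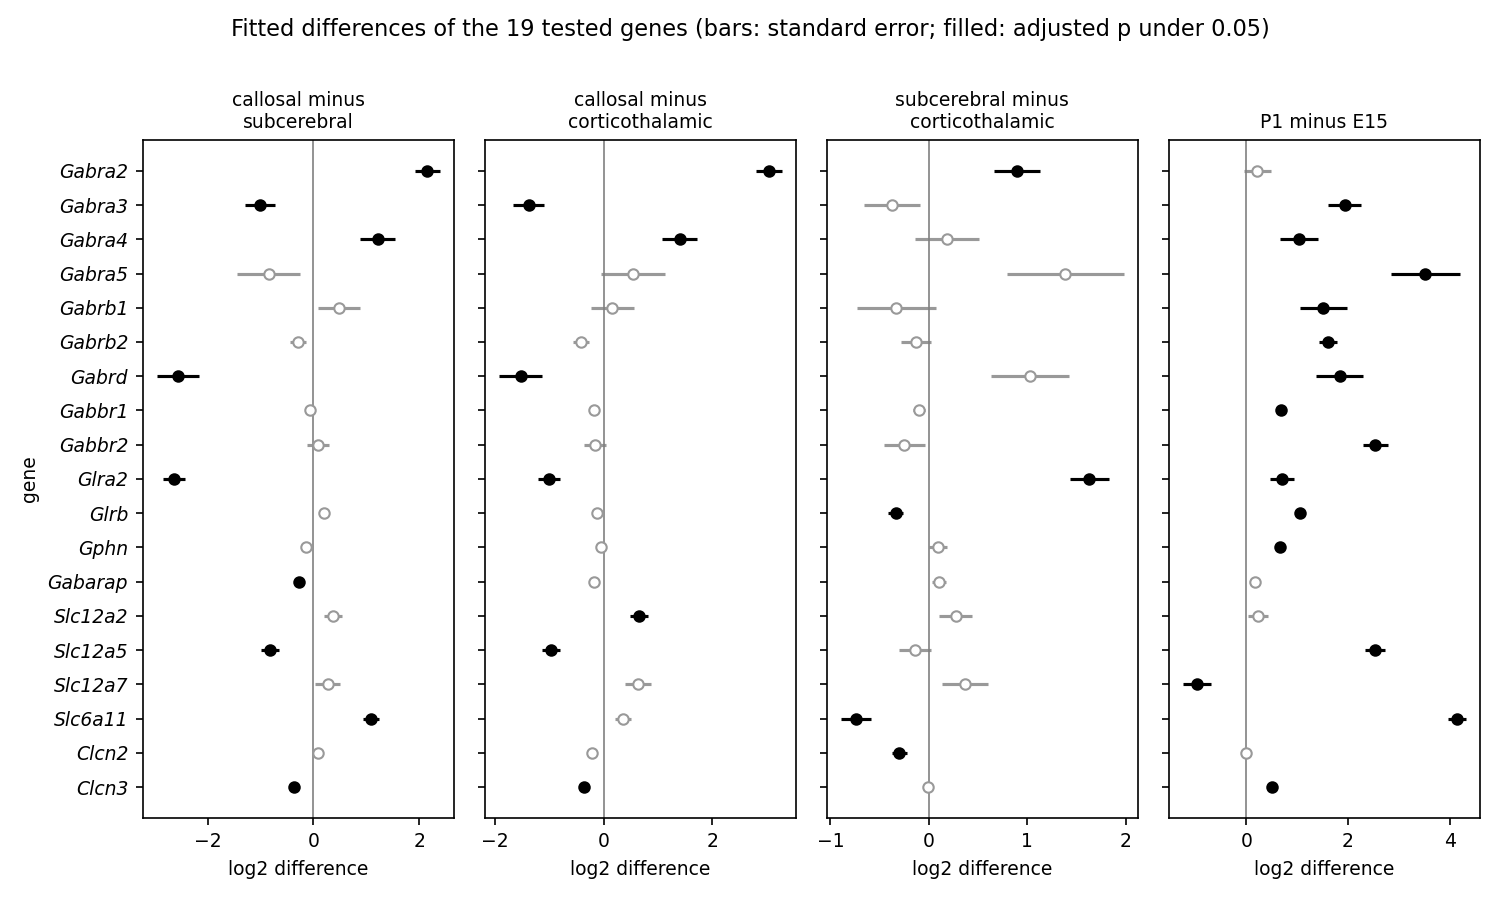
Fitted log2 differences of the 19 tested genes, with genes in rows and 1 panel per comparison, where bars are standard errors and filled points have an adjusted p below 0.05. Gabra2 lies farthest to the right and Glra2 farthest to the left in the callosal minus subcerebral panel, and 14 filled points lie right of 0 in the P1 minus E15 panel.

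Of the alpha subunit genes, Gabra2 and Gabra4 were higher and Gabra3 was lower in callosal neurons than in both other subtypes. Gabra2, whose subunit is common in synaptic receptors of the forebrain, had 18.7, 32.9, 16.8 and 15.1 FPKM at E15, E16, E18 and P1 in callosal neurons, against 1.93, 4.51, 3.67 and 5.61 FPKM in subcerebral neurons and 1.25, 2.93, 1.46 and 0.918 FPKM in corticothalamic neurons. Every callosal value lay above every value of the other subtypes. The callosal level was 9.73-fold the subcerebral level at E15, 7.30-fold at E16, 4.59-fold at E18 and 2.69-fold at P1, and it was 11.2-fold to 16.4-fold the corticothalamic level at the 4 stages. In the fit the callosal minus subcerebral difference was 2.15 ± 0.24 (adjusted p = 0.000756) and the callosal minus corticothalamic difference 3.04 ± 0.24 (adjusted p = 8.56e-05). Both calls held in all 14 alternatives, including those without the E15 callosal, the E16 callosal or the E15 subcerebral column. The smaller subcerebral minus corticothalamic difference, 0.89 ± 0.24 (adjusted p = 0.027), missed the threshold in 4 of them, without E16, E18, P1 or the callosal neurons (adjusted p up to 0.154).

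Gabra3 encodes an alpha subunit that is abundant in the immature cortex. It had 3.45, 4.73, 14.1 and 23.6 FPKM in callosal neurons over the 4 stages, against 8.06, 11.4, 26.0 and 50.7 FPKM in subcerebral and 18.7, 22.3, 26.4 and 34.0 FPKM in corticothalamic neurons. The callosal value was the lowest of the 3 at each stage, while the highest was corticothalamic up to E18 and subcerebral at P1. The callosal minus subcerebral difference was -1.01 ± 0.28 (adjusted p = 0.0291) and the callosal minus corticothalamic difference -1.38 ± 0.28 (adjusted p = 0.00731). The first was lost in 4 alternatives, without E16, E18, or the E15 or the E16 callosal column (adjusted p up to 0.111), and the second without E16 (adjusted p = 0.0642). P1 exceeded E15 by 1.94 ± 0.33 (adjusted p = 9e-04), and the P1 level was 6.83-fold that at E15 in callosal, 6.29-fold in subcerebral and 1.82-fold in corticothalamic neurons.

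Gabra5, known for receptors outside synapses that carry a tonic current, had the largest ratio of P1 to E15 level of the alpha genes, 59.5-fold in callosal and 49.8-fold in subcerebral neurons. Its values were 0.587, 5.65, 17.2 and 34.9 FPKM in callosal neurons, 1.42, 11.8, 31.2 and 70.5 FPKM in subcerebral neurons and 4.81, 2.43, 4.79 and 12.2 FPKM in corticothalamic neurons. At E15 the corticothalamic value was the highest of the 3, and from E16 on it was the lowest. P1 exceeded E15 by 3.52 ± 0.69 (adjusted p = 0.00201), a difference called in every alternative run. Averaged over the 4 stages, no subtype difference of Gabra5 passed, with adjusted p of 0.308, 0.521 and 0.109 for callosal minus subcerebral, callosal minus corticothalamic and subcerebral minus corticothalamic. When E15 was left out all 3 passed, at -0.92 (adjusted p = 0.00243), 1.35 (adjusted p = 0.000572) and 2.27 log2 units (adjusted p = 0.000161). The first also passed without the corticothalamic neurons, at -0.84 (adjusted p = 0.00577), and the third without the E15 subcerebral column, at 1.87 (adjusted p = 0.037). Without E15, 44.7%, 32.8% and 45.3% of all genes passed in the 3 comparisons, against 29.3%, 31.3% and 27.5% with all columns. The same shares apply to the genes below that passed without E15. The annotated span of Gabra5 overlaps that of a neighbouring subunit gene, and use of the strand in counting is not stated, so reads from the shared stretch cannot be told apart. The same limit holds for other listed genes with overlapping spans, among them Gabra4 with Gabrb1, Gabrd with Cfap74 and Clcn2 with Fam131a.

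Gabra4, the usual partner of the delta subunit in forebrain receptors, was a low gene with 0.837, 3.43, 5.99 and 7.59 FPKM in callosal neurons, against 0.229, 1.33, 1.34 and 1.504 FPKM in subcerebral and 0.603, 1.46, 0.735 and 0.473 FPKM in corticothalamic neurons. The callosal value was the highest at all 4 stages, and at P1 it was 5.05-fold the subcerebral and 16.04-fold the corticothalamic value. The fitted differences were 1.21 ± 0.33 against subcerebral (adjusted p = 0.0256) and 1.40 ± 0.33 against corticothalamic neurons (adjusted p = 0.0131). The first was lost without E16, E18 or P1 (adjusted p up to 0.144), and the second without any of these or without the subcerebral neurons (adjusted p up to 0.0986). P1 exceeded E15 by 1.04 ± 0.38 (adjusted p = 0.0357), a call that 7 alternatives lost: no filter on low genes (adjusted p = 0.0556), and leaving out E16, E18, the callosal neurons, the subcerebral neurons, the E15 callosal or the E15 subcerebral column (adjusted p up to 0.222). The difference was 0.45 without callosal neurons and 0.63 without the E15 callosal column. Gabra6, known from cerebellar granule cells, was listed at 0 in 11 columns and at 0.00599 FPKM in the P1 callosal one.

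**Figure D3:**
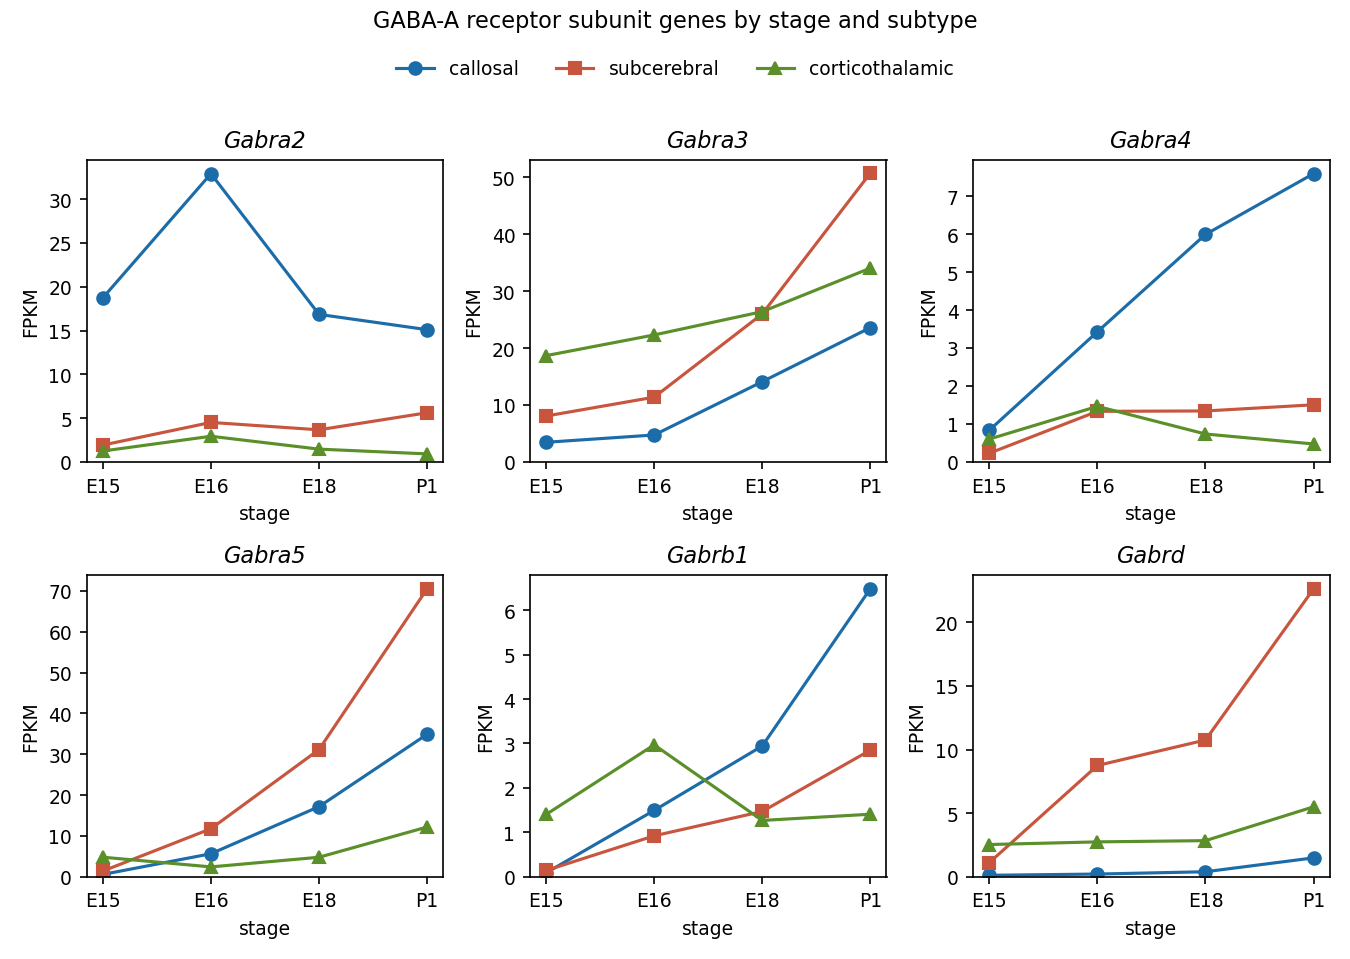
FPKM of 6 GABA-A receptor subunit genes (linear axis from 0, scaled per panel) at the 4 stages, with 1 line per subtype and 1 pooled value per point. Gabra2 and Gabra4 are highest in callosal neurons at every stage, Gabra5 and Gabrd reach their top values in P1 subcerebral neurons (70.5 and 22.6 FPKM), and the callosal Gabrd value stays at or below 1.49 FPKM.

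Taken as shares of the summed FPKM of these 5 alpha genes, the largest gene at E15 was Gabra2 in callosal neurons and Gabra3 in the other subtypes. Gabra2 made up 79.4%, 70.4%, 31.1% and 18.6% of the sum at E15, E16, E18 and P1 in callosal neurons, and Gabra5 made up 2.48%, 12.1%, 31.8% and 43.0%. In subcerebral neurons Gabra3 had 69.3% at E15, and Gabra5 had 12.2%, 40.6%, 50.1% and 54.9% over the stages. Corticothalamic neurons kept Gabra3 as the largest share at each stage, with 73.7%, 76.6%, 79.1% and 71.5%. The sum itself was 81.2 FPKM in callosal neurons at P1 and 23.6 FPKM at E15, 128 and 11.6 FPKM in subcerebral neurons, and 47.6 and 25.3 FPKM in corticothalamic neurons. The list does not hold every alpha subunit gene, so the shares are relative to these 5 only.

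**Figure D4:**
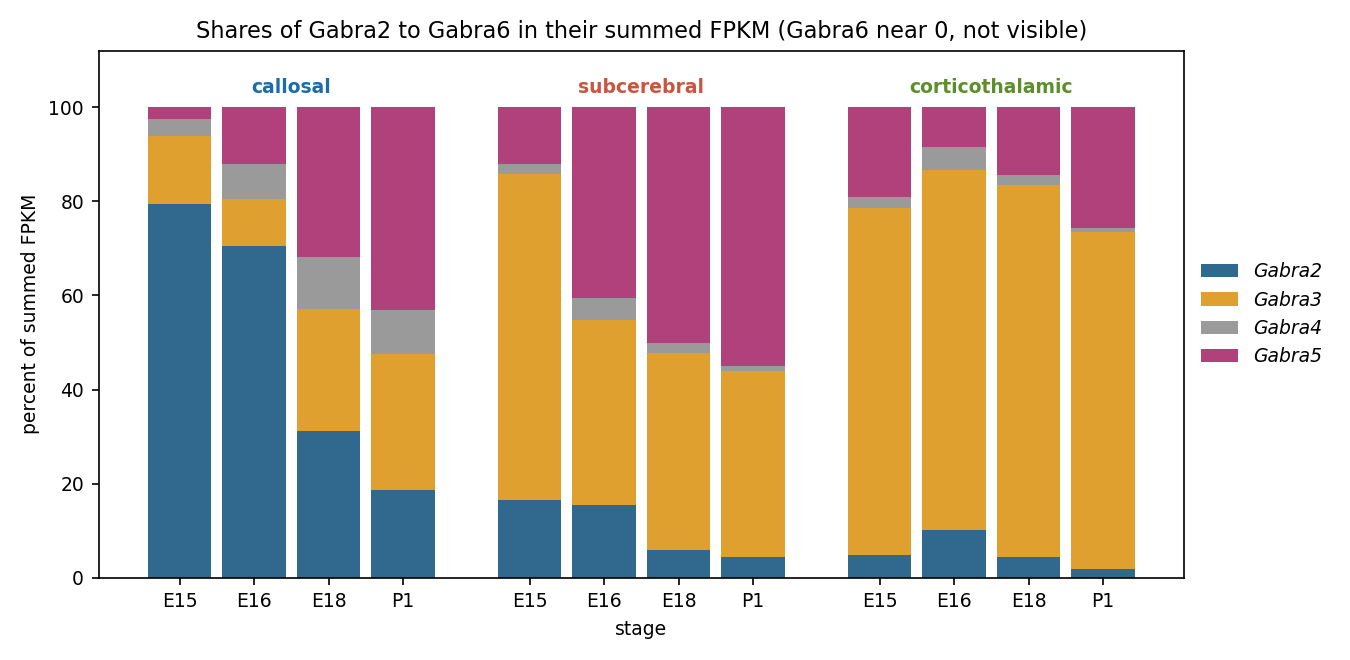
Share of each alpha subunit gene in the summed FPKM of Gabra2, Gabra3, Gabra4, Gabra5 and Gabra6, as stacked bars from 0 to 100%, with the 4 stages side by side for each subtype. The Gabra2 part of the callosal bars shrinks to 18.6% at P1 while the Gabra5 part reaches 43.0%, and Gabra3 takes at least 71.5% of every corticothalamic bar.

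Beta subunits line the GABA binding site together with alpha. Gabrb2 was a middle-level gene in all subtypes, with 7.19, 17.0, 26.7 and 32.3 FPKM in callosal, 9.36, 24.3, 30.9 and 35.0 FPKM in subcerebral and 15.7, 22.0, 32.6 and 32.2 FPKM in corticothalamic neurons. Its P1 minus E15 difference was 1.60 ± 0.18 (adjusted p = 8.54e-05), and no subtype comparison passed (adjusted p = 0.179, 0.0686 and 0.544), although callosal minus subcerebral did without E15 (adjusted p = 0.0418). Gabrb1 was lower, at 0.0905, 1.49, 2.94 and 6.48 FPKM in callosal, 0.144, 0.923, 1.47 and 2.85 FPKM in subcerebral and 1.40, 2.97, 1.27 and 1.41 FPKM in corticothalamic neurons. Its order changed with stage, since the corticothalamic value was the highest at E15 and E16 and the callosal value at E18 and P1. The P1 minus E15 difference of 1.51 ± 0.46 (adjusted p = 0.0179) was lost without callosal neurons, without subcerebral neurons, or without the E15 callosal or the E15 subcerebral column (adjusted p up to 0.16). It was 0.88 without callosal neurons.

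Gamma subunits bring receptors to synapses and form the benzodiazepine site. The 2 on the list were low and not tested. Gabrg1 had 0.0843, 0.243, 0.881 and 1.26 FPKM in callosal neurons, against at most 0.292 FPKM in subcerebral and 0.216 FPKM in corticothalamic neurons. Gabrg3 had 0.0832, 0.419, 0.531 and 0.629 FPKM in callosal, 0.00857, 0.438, 0.962 and 1.39 FPKM in subcerebral and 0.0188, 0.0964, 0.119 and 0.120 FPKM in corticothalamic neurons. So the top Gabrg1 value was callosal and the top Gabrg3 value subcerebral, both at P1.

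Gabrd, the delta subunit of receptors outside synapses, was lowest in callosal neurons at each stage. It had 0.122, 0.219, 0.400 and 1.49 FPKM in callosal neurons, against 1.12, 8.75, 10.7 and 22.6 FPKM in subcerebral and 2.54, 2.75, 2.84 and 5.50 FPKM in corticothalamic neurons. The callosal minus subcerebral difference was -2.56 ± 0.40 (adjusted p = 0.00335) and was called in every alternative run. The callosal minus corticothalamic difference, -1.53 ± 0.40 (adjusted p = 0.0211), was lost without E16, E18, P1 or the E16 callosal column (adjusted p up to 0.107). Subcerebral minus corticothalamic was 1.03 ± 0.40 and did not pass (adjusted p = 0.0845), but passed without E15 at 1.62 log2 units (adjusted p = 0.000183) and without the E15 subcerebral column at 1.60 (adjusted p = 9.18e-05). Gabre and Gabrq, which encode the rarer epsilon and theta subunits, stayed between 0.00818 and 0.0529 FPKM and between 0.00294 and 0.332 FPKM.

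Several of these subunit genes lie next to each other. In the RefSeq annotation of GRCm38.p6, Gabrg1 and Gabra2 are neighbours on chromosome 5, followed after 1 other protein-coding gene by Gabra4 and Gabrb1, whose annotated spans overlap. Gabrg3 and Gabra5 are neighbours on chromosome 7, Gabra6 and Gabrb2 on chromosome 11, and Gabra3 and Gabrq on chromosome X. Neighbours did not share 1 pattern: Gabra2 and Gabra4 had their highest value in callosal neurons at every stage and Gabrb1 from E18 on, whereas Gabra6 was near 0 beside Gabrb2 at up to 35.0 FPKM.

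The bases before the transcription start are shown for 5 of these genes, chosen because Gabrg1 and Gabra2 are neighbours with top values in callosal neurons, Gabra3 and Gabra5 have top values in subcerebral neurons at P1, and Glra2 is the gene with the largest callosal minus subcerebral difference in size. Each is the window of 250 bases upstream of an annotated start in RefSeq GRCm38.p6, given 5′ to 3′ on the gene's own strand, and holds no annotated UTR or coding base. Capitals mark any match, on either strand, to 4 short motifs: CAGATG (bound by neurogenic basic helix-loop-helix factors), TAATTA (a homeodomain core), TATAAA (the TATA box, written TTTATA where it lies on the other strand) and AACAAT (a SOX core).
Gabrg1, chr5:70842618-70842867, minus strand: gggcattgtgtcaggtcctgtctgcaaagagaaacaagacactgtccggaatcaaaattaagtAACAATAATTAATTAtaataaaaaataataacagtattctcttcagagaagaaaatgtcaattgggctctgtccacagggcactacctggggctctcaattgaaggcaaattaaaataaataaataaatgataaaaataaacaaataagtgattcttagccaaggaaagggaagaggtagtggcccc
Gabra2, chr5:71095850-71096099, minus strand: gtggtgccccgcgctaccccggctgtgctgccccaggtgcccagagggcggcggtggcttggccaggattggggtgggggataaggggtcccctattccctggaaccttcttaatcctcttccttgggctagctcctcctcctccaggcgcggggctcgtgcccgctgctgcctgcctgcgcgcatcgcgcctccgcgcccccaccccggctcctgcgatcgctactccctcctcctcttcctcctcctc
Gabra3, chrX:72656920-72657169, minus strand: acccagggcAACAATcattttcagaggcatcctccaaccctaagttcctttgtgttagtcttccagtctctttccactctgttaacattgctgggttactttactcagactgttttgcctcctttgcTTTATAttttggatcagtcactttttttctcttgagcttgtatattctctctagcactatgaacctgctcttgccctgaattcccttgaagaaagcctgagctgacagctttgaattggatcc
Gabra5, chr7:57510060-57510309, minus strand: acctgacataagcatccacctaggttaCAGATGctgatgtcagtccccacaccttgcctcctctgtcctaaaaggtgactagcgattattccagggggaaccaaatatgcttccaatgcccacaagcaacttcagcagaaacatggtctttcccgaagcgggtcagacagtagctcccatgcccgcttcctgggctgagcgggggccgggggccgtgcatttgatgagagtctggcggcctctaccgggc
Glra2, chrX:165327394-165327643, minus strand: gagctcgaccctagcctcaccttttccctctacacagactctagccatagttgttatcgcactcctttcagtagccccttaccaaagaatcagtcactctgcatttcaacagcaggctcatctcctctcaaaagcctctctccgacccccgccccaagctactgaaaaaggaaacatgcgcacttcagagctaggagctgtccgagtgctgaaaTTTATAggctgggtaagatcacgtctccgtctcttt
The Gabrg1 window held 2 overlapping TAATTA matches that run into an AACAAT match, the Gabra3 window AACAAT and TTTATA, the Gabra5 window CAGATG and the Glra2 window TTTATA, while none of the 4 was found in the Gabra2 window. The neighbours differed in base composition: the Gabra2 window was 70.0% G and C with 18 CpG pairs, and the Gabrg1 window 35.6% with 1 CpG pair. Among all 32851 promoter windows of this length, 14.4% held CAGATG, 4.84% TAATTA, 12.4% TATAAA and 9.42% AACAAT, and among the 33 windows of the 24 listed genes that could be matched 2, 1, 4 and 3 did. A match of this length is a description of the letters and not a known binding site. The median window had 60.8% G and C and 9 CpG pairs among the listed genes and 52.4% and 6 over all promoters.

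GABA-B receptors were present in all subtypes at similar levels. Gabbr1, the subunit that binds GABA, ranged from 110.3 to 182 FPKM in callosal, 118 to 207 FPKM in subcerebral and 128 to 203 FPKM in corticothalamic neurons, each highest at P1. Gabbr2, which couples to the G protein, had 4.14, 10.8, 22.4 and 29.996 FPKM in callosal, 3.62, 8.18, 20.2 and 37.6 FPKM in subcerebral and 8.08, 11.7, 15.99 and 34.3 FPKM in corticothalamic neurons. P1 exceeded E15 for both genes, by 0.69 ± 0.07 for Gabbr1 (adjusted p = 5.93e-05) and 2.54 ± 0.24 for Gabbr2 (adjusted p = 4.72e-05), in all 3 subtypes. The ratio of Gabbr1 to Gabbr2 FPKM was accordingly 6.07 at P1 and 26.6 at E15 in callosal, 5.52 and 32.7 in subcerebral and 5.91 and 17.1 in corticothalamic neurons. No comparison between subtypes passed for either gene, with adjusted p from 0.0587 to 0.784. Under quantile scaling Gabbr1 was lower in callosal than in corticothalamic neurons by -0.22 (adjusted p = 0.0162) and lower in subcerebral than in corticothalamic neurons by -0.23 (adjusted p = 0.0207). The first of these also passed without the E15 subcerebral column, at -0.17 (adjusted p = 0.0496).

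Glra2, the alpha subunit of fetal glycine receptors, was the subcerebral counterpart of Gabra2. It had 7.71, 6.28, 10.3 and 8.34 FPKM in callosal neurons, against 31.1, 65.7, 63.8 and 71.1 FPKM in subcerebral and 9.73, 20.9, 22.9 and 18.3 FPKM in corticothalamic neurons. All subcerebral values lay above all others. Callosal minus subcerebral was -2.64 ± 0.20 (adjusted p = 0.00016) and subcerebral minus corticothalamic 1.63 ± 0.20 (adjusted p = 0.00239), and both were called in every alternative run. Callosal minus corticothalamic was -1.005 ± 0.20 (adjusted p = 0.00666), lost only without E18 (adjusted p = 0.0548) among the 14 alternatives. The P1 minus E15 difference of 0.70 ± 0.23 (adjusted p = 0.0246) was lost without E18, without subcerebral neurons, without corticothalamic neurons or without the E15 subcerebral column (adjusted p up to 0.222).

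The beta subunit Glrb, which anchors glycine receptors to the scaffold, was even across subtypes by comparison, with 6.58, 8.79, 13.9 and 16.6 FPKM in callosal, 6.25, 7.17, 11.3 and 13.99 FPKM in subcerebral and 8.28, 10.7, 13.8 and 16.2 FPKM in corticothalamic neurons. Its P1 minus E15 difference was 1.05 ± 0.09 (adjusted p = 2.06e-05). Subcerebral minus corticothalamic was -0.34 ± 0.07 (adjusted p = 0.015), a small difference that was lost without E16 or E18 (adjusted p up to 0.115). Callosal minus subcerebral did not pass, but did at 0.26 without E15 (adjusted p = 0.034) or without the E15 callosal column (adjusted p = 0.0343), and at 0.23 under quantile scaling (adjusted p = 0.0401). The ratio of Glra2 to Glrb FPKM was 0.504 to 1.17 in callosal, 4.98 to 9.16 in subcerebral and 1.13 to 1.95 in corticothalamic neurons, with no overlap between subcerebral and the other columns. Glra1, the alpha subunit of adult spinal cord receptors, reached at most 0.0260 FPKM and was listed at 0 in 6 columns, and Glra3 reached at most 0.143 FPKM and was listed at 0 in 7.

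Among scaffold and trafficking genes, differences were small. Gphn encodes gephyrin, the scaffold under inhibitory synapses, and had 16.3, 15.2, 16.7 and 20.4 FPKM in callosal, 14.3, 16.3, 20.4 and 26.8 FPKM in subcerebral and 13.9, 15.4, 18.3 and 24.9 FPKM in corticothalamic neurons. The P1 level exceeded that at E15 by 0.66 ± 0.10 (adjusted p = 0.000545). No subtype comparison of Gphn passed with all columns, while callosal minus subcerebral passed at -0.25 without E15 (adjusted p = 0.0235) and at -0.24 without the E15 callosal column (adjusted p = 0.0297). Gabarap, a small protein that binds GABA-A receptors and also acts in autophagy, ranged from 95.6 to 115 FPKM in callosal, 117 to 149 FPKM in subcerebral and 100.7 to 149 FPKM in corticothalamic neurons. Its callosal minus subcerebral difference of -0.28 ± 0.07 (adjusted p = 0.0224) was lost in 4 alternatives, without E16, E18, P1 or the corticothalamic neurons (adjusted p up to 0.162). Other comparisons of Gabarap passed only in some alternatives, callosal minus corticothalamic under quantile scaling (adjusted p = 0.0277) and P1 minus E15 without callosal neurons (adjusted p = 0.043) or the E15 callosal column (adjusted p = 0.0454).

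The 2 main chloride cotransporters ran in opposite orders across the subtypes. Slc12a2 (NKCC1, the importer) had 10.1, 16.1, 11.1 and 15.6 FPKM in callosal neurons, against 9.10, 8.19, 9.28 and 12.96 FPKM in subcerebral and 8.81, 8.78, 7.43 and 6.69 FPKM in corticothalamic neurons. Slc12a5 (KCC2, the exporter) had 2.901, 2.26, 9.57 and 17.6 FPKM in callosal neurons, against 3.38, 7.97, 18.5 and 30.8 FPKM in subcerebral and 5.09, 7.51, 19.4 and 33.2 FPKM in corticothalamic neurons. At each stage the callosal value was the highest of the 3 for Slc12a2 and the lowest for Slc12a5. Callosal minus corticothalamic was 0.65 ± 0.17 for Slc12a2 (adjusted p = 0.02) and -0.96 ± 0.17 for Slc12a5 (adjusted p = 0.00325). Callosal minus subcerebral was -0.82 ± 0.17 for Slc12a5 (adjusted p = 0.00846) and 0.38 ± 0.17 for Slc12a2, which did not pass (adjusted p = 0.122). Neither gene passed in subcerebral minus corticothalamic (adjusted p = 0.241 for Slc12a2 and 0.533 for Slc12a5), so the order of those 2 subtypes rests on the values alone. The Slc12a2 call was lost without E16, E18, P1 or the E16 callosal column (adjusted p up to 0.0846), and the Slc12a5 call against subcerebral neurons without E18 (adjusted p = 0.0735).

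Slc12a5 was higher at P1 than at E15 by 2.53 ± 0.19 (adjusted p = 1.51e-05), and so in all 3 subtypes, while the difference of Slc12a2 was 0.23 ± 0.20 (adjusted p = 0.32). The ratio of Slc12a5 to Slc12a2 FPKM was 0.287, 0.140, 0.865 and 1.13 over the 4 stages in callosal neurons, 0.371, 0.973, 1.99 and 2.38 in subcerebral neurons and 0.577, 0.855, 2.61 and 4.96 in corticothalamic neurons. It was above 1 from E18 on in subcerebral and corticothalamic neurons and at P1 alone in callosal neurons, and the callosal ratio was the lowest of the 3 at each stage. These are ratios of transcript levels with 1 value each and no test.

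Slc12a7 (KCC4, a related exporter) was the 1 tested gene of the list that was lower at P1, by -0.97 ± 0.28 (adjusted p = 0.0129). It had 6.96, 5.39, 3.06 and 1.44 FPKM in callosal, 3.90, 4.53, 3.07 and 1.17 FPKM in subcerebral and 1.59, 2.63, 2.61 and 1.53 FPKM in corticothalamic neurons. P1 was below E15 in every subtype, by little in corticothalamic neurons. The call was lost without callosal neurons or without subcerebral neurons (adjusted p up to 0.132). Callosal minus corticothalamic passed only when P1 was left out (0.87, adjusted p = 0.044). A list of 8 progenitor and cell-cycle markers summed to 6.47 FPKM at P1 and 34.6 FPKM at E15 in callosal, 2.03 and 20.1 FPKM in subcerebral and 3.31 and 31.3 FPKM in corticothalamic neurons, and their part in this difference was not tested.

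Slc6a11, a plasma membrane GABA transporter (GAT3) best known from adult astrocytes, had the largest P1 minus E15 difference of the 19 tested genes. Its values were 0.886, 5.69, 16.4 and 38.5 FPKM in callosal, 0.118, 1.73, 7.34 and 15.4 FPKM in subcerebral and 0.763, 5.11, 8.69 and 30.4 FPKM in corticothalamic neurons. The value was higher at each later stage in every subtype, and P1 exceeded E15 by 4.14 ± 0.17 (adjusted p = 3.16e-06). Callosal minus subcerebral was 1.09 ± 0.15 (adjusted p = 0.00186), called in every alternative run, and subcerebral minus corticothalamic was -0.74 ± 0.15 (adjusted p = 0.0123), lost without E16 or P1 (adjusted p up to 0.0961). A list of 10 astrocyte and radial glia markers summed to 81.1 to 102.7 FPKM in callosal, 53.9 to 91.9 FPKM in subcerebral and 59.1 to 111 FPKM in corticothalamic neurons, with 4 to 7 of the 10 at 1 FPKM or more in each column. Of the 7 tested, callosal neurons had 4 higher than subcerebral neurons, and subcerebral neurons had 3 lower than corticothalamic neurons, the directions of Slc6a11, whereas 4 were lower at P1 than at E15, the opposite direction. Of the list, Gfap reached at most 0.0932 FPKM, Aqp4 0.0836 FPKM and Aldh1l1 0.843 FPKM. These are low members of the list, and its sums rest on other genes that are not named here. The part of these cells in the Slc6a11 differences was not tested. Slc6a13 (GAT2), a relative found in meninges and liver, was listed at 0 in 9 columns and reached at most 0.0180 FPKM.

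**Figure D5:**
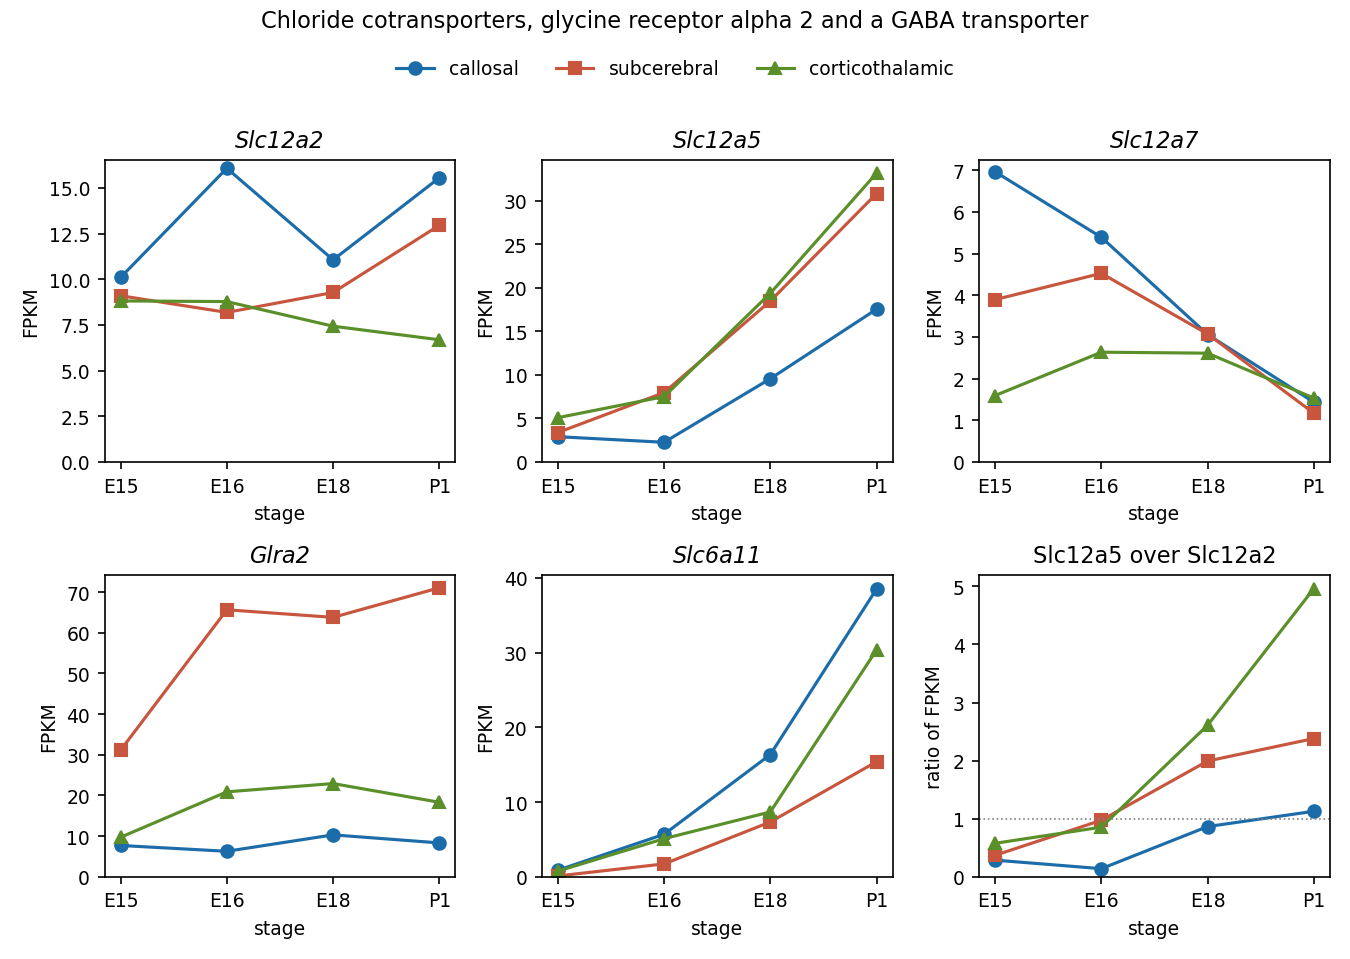
FPKM of the chloride cotransporters Slc12a2, Slc12a5 and Slc12a7, of Glra2 and of Slc6a11, and the ratio of Slc12a5 to Slc12a2 (dotted line at 1), at the 4 stages with 1 line per subtype. At P1 the ratio was 1.13 in callosal, 2.38 in subcerebral and 4.96 in corticothalamic neurons, and the Glra2 line of subcerebral neurons stays above the others throughout.

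The chloride channel genes varied little. Clcn3, an endosomal chloride and proton exchanger, had 22.8, 23.3, 25.0 and 34.2 FPKM in callosal neurons, against 29.8, 31.3, 33.0 and 41.6 FPKM in subcerebral and 29.5, 31.7, 33.4 and 41.5 FPKM in corticothalamic neurons. The callosal value was the lowest at each stage, with a difference of -0.36 ± 0.05 against subcerebral (adjusted p = 0.00122) and -0.37 ± 0.05 against corticothalamic neurons (adjusted p = 0.000712). Both calls, and the P1 minus E15 difference of 0.51 ± 0.05 (adjusted p = 6.62e-05), held in every alternative run. Clcn2, a plasma membrane channel, ranged from 9.98 to 15.7 FPKM over the 12 columns. Its subcerebral minus corticothalamic difference was -0.30 ± 0.08 (adjusted p = 0.0253), lost in 4 alternatives, without E16, E18, P1 or the callosal neurons (adjusted p up to 0.176). Callosal minus corticothalamic passed only without E15 (-0.22, adjusted p = 0.0428), without the subcerebral neurons (-0.21, adjusted p = 0.023) or without the E15 subcerebral column (-0.21, adjusted p = 0.0174).

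The second question the design allows is whether subtypes differed in their course over the stages. For this the difference between 2 subtypes in the linear change of log2(FPKM + 1) per stage step was tested. Slopes are signed, so a gene that falls faster has the lower slope. Of the 19 genes, 2 had a higher and 2 a lower slope in callosal than in subcerebral neurons, where 9.72% of all genes were higher and 10.8% lower, 20.5% in all. Callosal against corticothalamic neurons had 3 higher and 2 lower, with 5.21% and 5.03% of all genes, 10.2% in all. Subcerebral against corticothalamic neurons had 5 higher and 1 lower, with 7.47% and 7.44% of all genes, 14.9% in all. The lower slope of Slc12a7 in callosal than in corticothalamic neurons was a faster fall. Gabra4 and Gabrb1 had callosal slopes of 0.73 and 0.90 per step and corticothalamic slopes of -0.09 and -0.08, with differences of 0.82 ± 0.07 (adjusted p = 0.00449) and 0.98 ± 0.10 (adjusted p = 0.00601). Gabra3 was less steep in corticothalamic neurons (0.27 per step) than in callosal (0.88) and subcerebral neurons (0.87), by differences of 0.61 ± 0.08 (adjusted p = 0.0125) and 0.59 ± 0.08 (adjusted p = 0.0128). For Gabra2 the slope was -0.18 in callosal, 0.33 in subcerebral and -0.14 in corticothalamic neurons, and the callosal minus subcerebral difference was -0.51 ± 0.08 (adjusted p = 0.0139). No such difference of Slc12a5 passed, with slopes of 0.84, 0.97 and 0.87 and adjusted p of 0.581, 0.926 and 0.695. None of these slope calls held in every alternative. Without E18 the 3 limma counts were 0, 0 and 0, with 5, 6 and 9 genes at an unadjusted p below 0.05, while over all 13739 genes then tested 0, 0 and 7 were called. Without P1 they were 0, 0 and 1, with 5 and 7 genes at an unadjusted p below 0.05 in the first 2, and 1.09%, 0.0961% and 1.10% of all genes were called. Without E15 they were 1, 3 and 3, with 3.62%, 4.33% and 3.72% of all genes. Leaving out the E15 callosal column gave 0 (5 genes at an unadjusted p below 0.05), 2 and 6, with 0.525%, 0.971% and 14.3% of all genes. Leaving out the E16 callosal column gave 4, 4 and 5, with 14%, 6.67% and 10.9%, and leaving out the E15 subcerebral column 1, 6 and 3, with 3.66%, 18.9% and 4.61%. How many of all genes had an unadjusted p below 0.05 was not counted. The unadjusted counts above therefore have no share of all genes beside them, and nothing is concluded from them.

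The comparisons of levels were counted without these columns too. Without the E15 callosal column, callosal minus subcerebral had 10 of the 19 genes (32.7% of all genes), callosal minus corticothalamic 8 (26.8%), subcerebral minus corticothalamic 5 (31.2%) and P1 minus E15 14 (66.1%). Leaving out the E16 callosal column gave, in the same order, 8 (15.6% of all genes), 6 (20.2%), 5 (20.4%) and 15 (64.8%). Without the E15 subcerebral column the counts were 9 (43.0% of all genes), 10 (38.0%), 7 (44.1%) and 12 (61.8%). With the whole E15 stage left out, the 3 subtype comparisons had 13 (44.7% of all genes), 10 (32.8%) and 7 (45.3%). At P1, 6 of the 19 genes had their highest value in callosal, 9 in subcerebral and 4 in corticothalamic neurons, and at E15 these counts were 6, 3 and 10. The value was higher at each later stage for 11 of the 19 genes in callosal, 13 in subcerebral and 8 in corticothalamic neurons. Neither the highest subtype nor this order was counted over all genes, so these counts cannot be read as particular to the listed genes.

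Further genes of GABA, glycine and chloride handling were read from a separate list, of which 62 names were found and 50 tested. In callosal minus subcerebral, 8 were higher and 9 lower, 34% of the list against 29.3% of all genes. The Plcl1 gene, whose product binds Gabarap and acts in receptor trafficking, was higher by 1.58 ± 0.10 (adjusted p = 7.63e-05), with 4.36 to 5.99 FPKM in callosal neurons, against 0.781 to 1.04 FPKM in subcerebral neurons. Trak1, an adaptor for kinesin transport, and Clcn1, a chloride channel best known from muscle, were higher by 0.86 ± 0.18 (adjusted p = 0.00908) and 0.60 ± 0.14 (adjusted p = 0.0141). Kctd12 and Kctd8, auxiliary subunits of GABA-B receptors, were lower by -2.36 ± 0.31 (adjusted p = 0.00146) and -1.28 ± 0.31 (adjusted p = 0.0184), and so was Slitrk3, an adhesion protein of inhibitory synapses, by -1.42 ± 0.35 (adjusted p = 0.0195).

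In callosal minus corticothalamic 3 of the 50 were higher and 11 lower, 28% of the list against 31.3% of all genes. Kctd12 had 5.35, 14.6, 18.9 and 9.08 FPKM in callosal, 87.8, 71.1, 55.3 and 37.7 FPKM in subcerebral and 148, 173, 206 and 127 FPKM in corticothalamic neurons, so the 3 subtypes did not overlap, while the receptor subunits Gabbr1 and Gabbr2 had no such order. Its callosal minus corticothalamic difference was -3.77 ± 0.31 (adjusted p = 0.000108) and its subcerebral minus corticothalamic difference -1.41 ± 0.31 (adjusted p = 0.0154). Kctd8 and Abat, the enzyme that breaks down GABA, were also lower in callosal than in corticothalamic neurons, by -1.31 ± 0.31 (adjusted p = 0.0148) and -1.09 ± 0.17 (adjusted p = 0.00234). Plcl1 (1.30 ± 0.10, adjusted p = 8.71e-05), Clcn6, a late endosomal exchanger (0.40 ± 0.06, adjusted p = 0.00125), and Kif21a, a kinesin (0.24 ± 0.07, adjusted p = 0.0279), were higher. In subcerebral minus corticothalamic 2 of the 50 were higher, Slitrk3 by 2.23 ± 0.35 (adjusted p = 0.00601) and Clcn6 by 0.28 ± 0.06 (adjusted p = 0.0107), and 7 lower, 18% of the list against 27.5% of all genes. Hap1, which acts in recycling of GABA-A receptors, and Nsf, the vesicle fusion ATPase, were among the lower ones, by -1.07 ± 0.16 (adjusted p = 0.00447) and -0.64 ± 0.09 (adjusted p = 0.00377).

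From E15 to P1 the wider list was mixed: P1 was higher for 19 of the 50 and lower for 10, 58% of the list against 67.4% of all genes, with a median difference of 0.16 log2 units. The glycine transporter gene Slc6a9 was higher at P1, by 1.67 ± 0.10 (adjusted p = 7.31e-06), with 4.41 to 5.46 FPKM at P1 and 0.884 to 0.951 FPKM at E15 in the 3 subtypes. Lower at P1 were Hap1 by -1.01 ± 0.18 (adjusted p = 0.0012), Wnk3, a kinase that regulates cation-chloride cotransporters, by -0.89 ± 0.08 (adjusted p = 2.61e-05), and the kinesin Kif21b by -0.76 ± 0.09 (adjusted p = 0.000142). In the course over stages, 12 of the 50 differed between callosal and subcerebral neurons, 7 with a higher and 5 with a lower callosal slope. Between callosal and corticothalamic neurons 2 differed, and between subcerebral and corticothalamic neurons 4. These are 24%, 4% and 8% of the list, against 20.5%, 10.2% and 14.9% of all genes. The kinase Stk39, which acts below the WNK kinases on the cotransporters, had a slope of -0.13 in callosal, 0.47 in subcerebral and -0.01 in corticothalamic neurons. Its callosal minus subcerebral difference was -0.59 ± 0.04 (adjusted p = 0.00488) and its subcerebral minus corticothalamic difference 0.47 ± 0.04 (adjusted p = 0.0049). Without E18, 0 of 13739 genes were called for the first slope comparison and 7 for the second, so the first Stk39 call was lost there. Calls of single genes of the wider list, for levels or slopes, were not followed through the alternatives.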

How the data were processed

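Per the labels' protocols, RNA from sorted cells went into Illumina libraries with poly(A) selection. The tools named in the submitters' processing notes are TopHat2 and Cufflinks, with build mm9. The sources used here do not give versions, annotation, strand use or the way in which the 2 libraries of a group were pooled. Since no unit stands in the header, the authors' deposited values were taken to be FPKM from Cufflinks, an inference from the tool and from the values, so depth is unknown and no counting interval can be given. An exact 0 can be a failed estimate and is described as listed at 0.

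Columns were assigned by stage and subtype from their names. Genes with at least 1 FPKM in 2 columns were fitted with limma-trend (limma 3.58.1, R 4.3.3) on log2(FPKM + 1), with additive stage and subtype terms, 6 residual degrees of freedom, robust moderation and Benjamini-Hochberg adjustment over all 13946 genes, at a threshold of 0.05. Slopes added 1 linear term per subtype (4 residual degrees of freedom). The code was tested on simulated data. Alternatives changed the pseudocount (0.1, 0.5), the filter (none, 5 FPKM), the scaling (median ratio, quantile), or left out each stage or subtype. Leaving out the E15 callosal, the E16 callosal or the E15 subcerebral column was added after seeing the data. Members and lists were chosen with earlier results of these data known. Named members are all 27. Of the wider list, the 3 genes with the largest called difference per direction were named for the subtype and stage comparisons, of which 2 genes, and 1 callosal marker, are not reported here. For the slopes only Stk39 is given.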

Additional observations from a re-analysis of the deposited data

Results flagged for a closer look

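The difference between subtypes in the change per stage step passed the threshold for 15 pairings of a gene and a comparison, by the limma slope test with adjusted p below 0.05. Each value is a difference in log2(FPKM + 1) per stage step ± SE.

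In callosal minus subcerebral neurons, the slope of Gabra4 was higher by 0.43 ± 0.07 (adjusted p = 0.0129) and that of Clcn2 by 0.14 ± 0.04 (adjusted p = 0.0454), while Gabra2 at -0.51 ± 0.08 (adjusted p = 0.0139) and Gphn at -0.19 ± 0.03 (adjusted p = 0.0162) were lower. In callosal minus corticothalamic neurons, Gabra3 was at 0.61 ± 0.08 (adjusted p = 0.0125), Gabra4 at 0.82 ± 0.07 (adjusted p = 0.00449) and Gabrb1 at 0.98 ± 0.10 (adjusted p = 0.00601), with Gphn at -0.16 ± 0.03 (adjusted p = 0.0319) and Slc12a7 at -0.57 ± 0.08 (adjusted p = 0.0118). In subcerebral minus corticothalamic neurons, Gabra2 was at 0.47 ± 0.08 (adjusted p = 0.0181), Gabra3 at 0.59 ± 0.08 (adjusted p = 0.0128), Gabra4 at 0.40 ± 0.07 (adjusted p = 0.0162), Gabrb1 at 0.64 ± 0.10 (adjusted p = 0.0148) and Gabrd at 0.80 ± 0.21 (adjusted p = 0.0494), with Slc12a7 at -0.38 ± 0.08 (adjusted p = 0.0234). Gabra4 appears in all 3 comparisons, which share columns. With 4 residual degrees of freedom none of the 15 was called in every alternative, and without E18 none of them was called by limma, with 5, 6 and 9 genes at an unadjusted p below 0.05 in the 3 comparisons and 0, 0 and 7 called over all 13739 genes then tested. How many of all genes had an unadjusted p below 0.05 was not counted, so nothing is concluded from those 5, 6 and 9. Without the E15 subcerebral value, Gabrd was at 0.23 in subcerebral minus corticothalamic neurons (adjusted p = 0.0872).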

How the results depend on the processing

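No paired analysis was possible because the table has no value per library. Pseudocount, filter and scaling left each count of called genes within 1.5 times of its value: callosal minus subcerebral 9 to 10, callosal minus corticothalamic 8 to 10, subcerebral minus corticothalamic 5 to 6, P1 minus E15 14 to 18 and the 3 slope comparisons 3 to 6. These counts are of 27 listed genes without the filter, 18 at 5 FPKM and 19 otherwise. Without the filter, 16.6%, 19.2%, 13.6% and 46.4% of all genes were called for levels, against 29.3%, 31.3%, 27.5% and 67.4% with it. For the slopes these shares were 8.16%, 3.29% and 5.84%, against 20.5%, 10.2% and 14.9%. Leaving out a stage, a subtype or the E15 callosal, E16 callosal or E15 subcerebral value gave 5 to 13 for callosal minus subcerebral, 4 to 10 for callosal minus corticothalamic, 1 to 7 for subcerebral minus corticothalamic and 11 to 15 for P1 minus E15, while the share of all genes called moved between 7.37% and 44.7%, 13.4% and 38.0%, 1.89% and 45.3%, and 55.7% and 66.1%. The same settings gave 0 to 6 for the slope of callosal minus subcerebral, 0 to 6 for callosal minus corticothalamic and 0 to 7 for subcerebral minus corticothalamic neurons, with up to 14%, 18.9% and 14.3% of all genes. Fewer values enter these fits. No called value of a listed gene changed sign in any setting. Counts of 1 and 3 for the slopes of callosal minus subcerebral and subcerebral minus corticothalamic came from the fit without the E15 subcerebral value. Called in every setting were 5 of 9, 3 of 8, 1 of 5 and 11 of 15 genes of the 4 comparisons of levels. The same was not counted over all called genes, so no share of theirs can be set beside it. Depth is unknown, so low genes such as Gabrg1 cannot be given a counting error.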
